A study of Mus musculus with 12 samples.

Results

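The genes for mitochondrial ribosomal proteins were read in mouse B-ALL cells, transformed by BCR-ABL1 and homozygous for a floxed Ctnnb1 allele (Ctnnb1 fl/fl), with and without a GSK3β inhibitor. Members are the genes whose symbol is Mrpl or Mrps followed by a digit, without the pseudogene ending -ps, and whose mean value over the 6 samples used was at least 3 on the rlog scale. This rule found 76 genes among the 41444 of the deposited table, 47 named Mrpl and 29 named Mrps. Before the limit on the mean there were 77 such names. Mrpl42, at a mean of 2.76, lay just outside the limit, and the lowest member, Mrpl23, had a mean of 6.02. A further 5 names with -ps were not members.

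The study asked how gene expression changes when the degradation of β-catenin is blocked in B-ALL cells, and whether this depends on β-catenin. B-ALL is B cell acute lymphoblastic leukemia, and BCR-ABL1 is the fusion kinase used here to transform mouse B cell precursors. RNA was sequenced in 12 samples, 3 in each of 4 groups. Control cells carried ERT2, the tamoxifen-binding domain of the estrogen receptor without Cre, together with the floxed and unrecombined Ctnnb1 fl/fl alleles, and received 1 µM 4-hydroxytamoxifen (4-OHT) for 2 days. LY2090314-treated cells were the same ERT2 cells with the same 4-OHT, to which 40 nM LY2090314, an inhibitor of GSK3, was added for 1 day by the labels, while the study's text gives a shorter exposure. Neither group carried Cre, and both had seen 4-OHT. The cells are transformed cultures of bone marrow pre-B cells, and the study describes the replicates of a group as coming from separate mice. No column name ties a sample to a mouse, and no pairing by mouse was made. The Cre-ERT2 groups, in which Ctnnb1 is deleted, were not analysed here.

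Mitochondria translate the few messages of their own genome on a separate ribosome, the mitoribosome. Its RNAs come from mitochondrial DNA, while all of its proteins are encoded in the nucleus, made in the cytosol and imported. Some of these proteins descend from bacterial ribosomal proteins and others are particular to mitochondria. The messages translated there encode core subunits of the respiratory chain and of ATP synthase, and blocking mitochondrial translation is known to slow the growth of some leukemia cells.

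The values were rlog values, log2 expression levels corrected for library size and shrunken for genes with few reads. No read counts were used here and library depth is unknown. In the ERT2 cells Ctnnb1 was at 12.19 ± 0.00424 (SD, n = 3) in controls and 11.85 ± 0.03 with LY2090314, Axin2, a target of β-catenin, went from 6.31 ± 0.15 to 7.97 ± 0.14, and Myc went from 11.79 ± 0.04 to 9.15 ± 0.02. All 10 pre-B markers looked for (among them Cd79a, Cd79b and Pax5) had a mean above 3 in both groups. Their summed level was 16.26 to 16.29 in controls and 15.64 to 15.79 in treated samples on the log2 scale. Single pre-B markers changed unequally, from -1.93 in Rag1, -1.81 in Rag2 and -1.54 in Pax5 to 0.23 in Cd79a, the only positive one. The 4 T cell markers lay at or below -1.46 in every sample, and the 3 stromal markers at or below 0. Of 5 myeloid markers 1, Lyz2, was above 3, with a summed myeloid level of 5.83 to 6.04 in controls and 6.39 to 6.51 in treated samples. Of 3 erythroid markers 1, Hbb-bt, was above 3, and the summed level was 3.82 to 3.93 in controls and 3.42 to 3.49 with LY2090314. The part of these marker changes in the differences below was not tested, and in bulk RNA fewer cells of a type cannot be told apart from less RNA per cell.

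With LY2090314, 40 of the 76 mitochondrial ribosomal protein genes fell and 0 rose (limma on the rlog values, Benjamini-Hochberg adjusted p under 0.05 over all 11536 genes tested). This is 52.6% of the members, while 25.3% of all genes tested were called lower, 24.8% were called higher and 50.1% were called in either direction. At an unadjusted p under 0.05 the counts were 46 lower and 0 higher. The difference was negative in 70 members and positive in 6. The median member differed by -0.21 on the log2 scale, a level 13.8% lower, while the median over all genes tested was 0.01. The largest fall was that of Mrps15, by 0.87, and the largest positive difference was 0.19, in Mrpl48, which did not pass the threshold. The falls were small. Of the members, 8 (10.5%) passed the threshold with a fall of at least 0.5, close to the 9.37% of all genes tested. A further 18 passed with a fall between 0.3 and 0.5, and 14 with a smaller one, down to 0.16 in Mrpl50. The 3 treated samples all lay below the 3 controls in 45 members, or 59.2%, against 29.5% of all genes tested, and all lay above them in 1, Mrpl57, against 29.1%. With 3 samples against 3 the exact permutation test of a single gene cannot go below p = 0.10, which is the value of every member whose groups did not overlap. Leaving out control 3, LY 1 or LY 2 reduced the count of lower members to 25, 25 and 26, or 32.9%, 32.9% and 34.2% of the members, while 22.4%, 21.0% and 20.9% of all genes tested were lower in these fits. Counting LY 1 and LY 2 as 1 sample, because their column names share a number, gave 26 lower members (34.2%, against 21.4% of all genes). Across the alternatives of samples, scaling, variance model and limit on the mean that had been listed, 24 of the 40 stayed past the threshold.

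**Figure D1:**
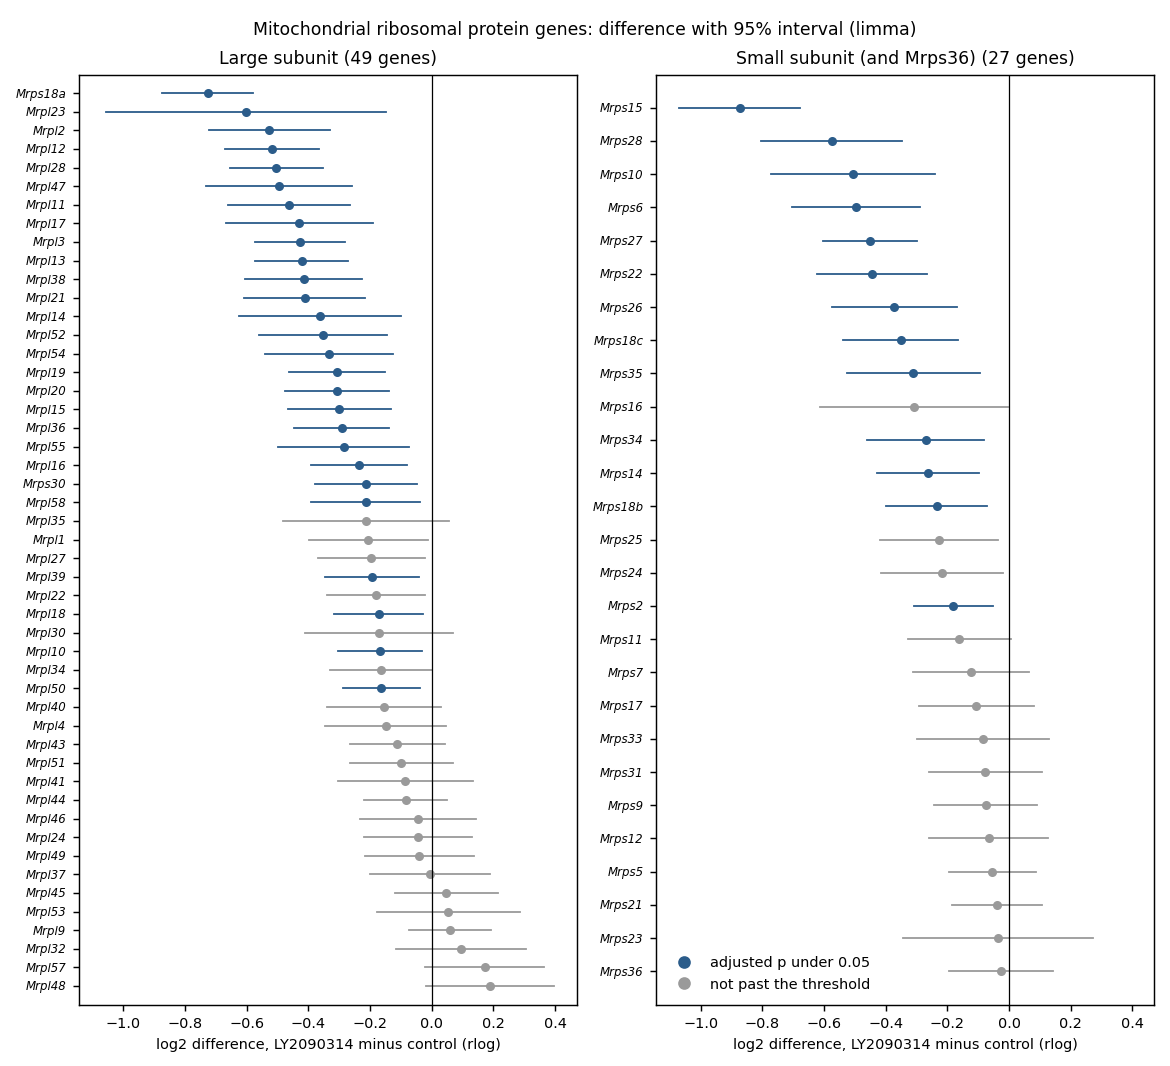
Log2 difference (rlog, LY2090314 minus control, 3 samples against 3) of every member, with its 95% interval from limma, ordered within the large subunit (left) and the small subunit with Mrps36 (right). Blue points passed an adjusted p of 0.05. Of the 76 points 70 lie left of 0, and no blue point lies to the right.

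The plot of all members with their intervals shows how the falls were graded, with no break between members past the threshold and the rest. The 10 largest falls among members whose groups did not overlap were those of Mrps15, Mrps18a, Mrps28, Mrpl2, Mrpl12, Mrps10, Mrpl28, Mrps6, Mrpl47 and Mrpl11, from 0.87 down to 0.46. Their highest adjusted p was 0.00742, and all 10 kept an adjusted p under 0.05 in every alternative of samples, scaling and model. Of the 10, 9 were classed as having a direct bacterial counterpart. The exception was Mrps18a, a diverged relative of a bacterial protein.

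Mrps15, on chromosome 4 (126046925 to 126055532, plus strand, GRCm38), encodes a small-subunit protein whose bacterial relative binds the ribosomal RNA early in assembly. Its rlog values were 9.64, 9.57 and 9.82 in the controls and 8.79, 8.70 and 8.91 with LY2090314. The lowest control was far above the highest treated sample. The means were 9.67 ± 0.13 and 8.80 ± 0.10 (SD, n = 3), a fall of 0.87 ± 0.09 (SE), 45.4% on the linear scale, with an adjusted p of 9.97e-05 in limma. Leaving out 1 sample or changing the scaling kept the fall between 0.80 and 0.93.

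Mrps18a (chromosome 17, 46110986 to 46128910, plus strand) is 1 of 3 mammalian relatives of the bacterial protein S18. Despite its name, its product sits in the large subunit of the mitoribosome. The controls were at 9.79, 9.76 and 9.90 and the treated samples at 9.02, 9.11 and 9.15, so the groups were wide apart. It fell by 0.73 ± 0.06 (39.5%, limma adjusted p = 5.61e-05). The related Mrps18c, of the small subunit, was at 9.21, 9.33 and 9.46 in controls and at 9.02, 8.89 and 9.03 with LY2090314, a fall of 0.35 ± 0.08 (adjusted p = 0.00750). Mrps18b, the remaining relative and also of the small subunit, was at 9.32, 9.43 and 9.56 against 9.22, 9.18 and 9.21, a fall of 0.24 ± 0.07 (adjusted p = 0.0253). In none of the 3 relatives did treated and control samples overlap, though for Mrps18b the gap between the nearest samples was small, and its call was lost in some alternatives (adjusted p from 0.0153 to 0.0757). Of Mrps18c, 32.8% of its stretches of 31 bases also occur in other annotated genes, so reads could be assigned to either.

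Among the other small-subunit genes, Mrps28, which encodes the relative of bacterial S1, had control values of 8.56, 8.72 and 8.91 and treated values of 8.09, 8.16 and 8.22. It fell by 0.58 ± 0.10 (32.9%, adjusted p = 0.00191). Its controls were more scattered than its treated samples, with an SD of 0.18 against 0.06. Mrps10, whose product belongs to the head of the small subunit, read 9.10, 8.98 and 9.30 and then 8.46, 8.59 and 8.81. The fall was 0.51 ± 0.11 (adjusted p = 0.00742), the least certain of the 10, with an SD of 0.17 in controls and 0.18 with LY2090314. Mrps6, whose bacterial relative is a partner of S18, is one of the 3 members with a mean under 7, at 7.14, 7.29 and 7.23 in controls and 6.65, 6.68 and 6.83 with LY2090314, a fall of 0.50 ± 0.09 (adjusted p = 0.00245). Mrps6 shares 18.4% of its stretches with other annotated genes.

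In the large subunit, Mrpl2, which lies close to the site of peptide bond formation, was at 9.49, 9.68 and 9.76 in controls and 9.08, 9.06 and 9.22 in treated samples. It fell by 0.53 ± 0.08 (30.6%, adjusted p = 0.00136). Mrpl12 encodes the stalk protein that recruits translation factors, and after Mrpl18 it was the most highly expressed member, also per kilobase of exon. Its controls were at 10.76, 10.90 and 10.92 and its treated samples at 10.32, 10.27 and 10.43. It fell by 0.52 ± 0.07 (30.2%, adjusted p = 0.000391), with narrow groups that lay well apart. Mrpl11, which forms the base of the same stalk, fell by 0.46 ± 0.09 from 7.89, 7.73 and 7.93 to 7.32, 7.44 and 7.40 (adjusted p = 0.00277).

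Mrpl28 read 9.80, 9.89 and 10.00 in controls and 9.35, 9.40 and 9.44 with LY2090314, a fall of 0.50 ± 0.07 (adjusted p = 0.000452). Mrpl47 read 8.999, 8.86 and 9.15 against 8.34, 8.55 and 8.63, a fall of 0.50 ± 0.10 (adjusted p = 0.00487). Both encode large-subunit proteins with bacterial relatives, and for both every treated sample lay below every control. Mrpl23, whose bacterial relative sits by the exit of the peptide tunnel, had a larger estimate with a wide error. Its controls were at 6.06, 6.35 and 6.54 and its treated samples at 5.41, 6.11 and 5.63, so that LY 2 overlapped with the controls. The fall of 0.60 ± 0.20 passed the threshold in limma (adjusted p = 0.0344, from 0.00715 to 0.108 over the alternatives), while the exact permutation p over its 6 samples was 0.20. It was the only called member whose groups overlapped. The name Mrpl23-ps1, a pseudogene that shares 10.3% of the 31-base stretches of Mrpl23, was listed at a higher level than Mrpl23 itself, 9.66 ± 0.06 in controls and 8.98 ± 0.20 with LY2090314, so how the reads of this pair were divided is uncertain.

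**Figure D2:**
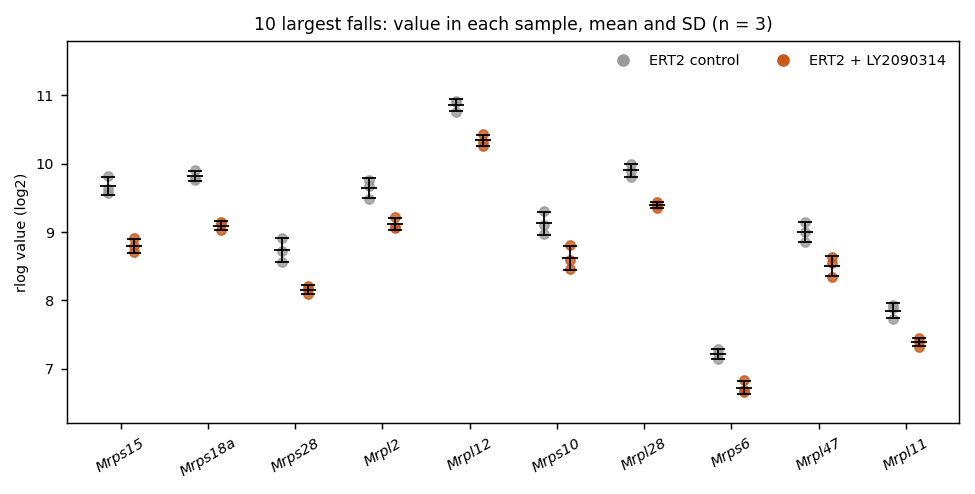
Rlog value (log2 scale, axis not starting at 0) of the 10 members with the largest falls among those whose groups did not overlap. Each point is a sample, gray for ERT2 controls and orange for ERT2 cells with LY2090314, and bars give the mean and SD (n = 3). Each treated sample lies below each control in all 10.

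RefSeq start regions (GRCm38.p6) were found for 67 of the 76 members. The sequences below are shown because they carry the short motifs counted next, or, for Mrps15, because it had the largest fall. Positions count from the RefSeq start as +1, all 5 lie on the plus strand, and capitals mark matches to CACGTG (E-box, bound by Myc and related factors), CCGGAAGT (ETS factors), the core of NRF1 sites and AAGATGGC (YY1), on either strand. Mrps15 is shown for chr4:126046758-126046954, Mrps27 for chr13:99344676-99344815, Mrps18c for chr5:100798589-100798656, Mrps18a for chr17:46110988-46111033 and Mrps7 for chr11:115604140-115604169.
Mrps15: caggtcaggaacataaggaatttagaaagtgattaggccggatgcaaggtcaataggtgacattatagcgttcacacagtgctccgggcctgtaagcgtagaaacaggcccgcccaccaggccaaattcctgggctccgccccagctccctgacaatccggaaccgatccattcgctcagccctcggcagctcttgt
Mrps27: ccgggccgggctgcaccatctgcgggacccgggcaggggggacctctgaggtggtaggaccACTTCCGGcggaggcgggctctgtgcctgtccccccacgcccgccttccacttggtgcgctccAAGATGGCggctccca
Mrps18c: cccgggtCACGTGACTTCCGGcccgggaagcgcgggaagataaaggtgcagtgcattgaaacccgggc
Mrps18a: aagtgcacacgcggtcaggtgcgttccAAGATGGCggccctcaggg
Mrps7: gaggtcctgacagcggccAAGATGGCtgcc
In Mrps27 the ETS letters stand at -49 on the opposite strand and the YY1 letters at +15. In Mrps18c the E-box begins at -163 and the ETS letters, on the opposite strand, at -157, directly after it. In Mrps18a and Mrps7 the YY1 letters begin at +12 and +19. Mrps27, which encodes a small-subunit protein particular to mitochondria, fell by 0.45 ± 0.07 from 9.52, 9.53 and 9.61 to 9.07, 9.03 and 9.20 (adjusted p = 0.000806). Mrps7 was at 9.82, 9.85 and 9.99 in controls and 9.68, 9.69 and 9.92 in treated samples and did not pass the threshold (-0.12 ± 0.08, adjusted p = 0.243). The same letters thus stood at a member that fell and at one that was not called.

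Windows of 300 bases, from 250 before to 50 after the start, were searched on both strands in 32 members called lower, in the 35 other members with a window and in 8681 of the genes tested. The YY1 letters occurred in 16.4% of the members, in 3 of the 32 called lower and 8 of the 35 others, and in 5.85% of the genes tested. In 6 of these 11 members the ATG within AAGATGGC is the annotated start codon, as it was in 31.1% of the genes tested with a match. The ETS letters also occurred in 16.4% of the members, in 7 of the lower and 4 of the others, and in 10.1% of the genes tested. The E-box was found in 5 members, or 7.46% of the members against 12.2% of the genes tested. Of the 5, 4 were called lower (Mrpl2, Mrpl20, Mrpl36 and Mrps18c) and 1 was not (Mrpl37). The 4 were 12.5% of the 32 members called lower, near the share of the genes tested. The 1 was 2.86% of the 35 others. The NRF1 core was found in 3 members, Mrpl9, Mrpl32 and Mrpl39, or 4.48% against 2.58%. TATAAA occurred in 7.46% of the members and 8.13% of the genes tested, and CCAAT in 37.3% and 43.9%. Over all 27025 genes with a window the shares were 3.19% for YY1, 4.31% for ETS, 8.09% for the E-box, 1.07% for NRF1, 15.7% for TATAAA and 41.1% for CCAAT. These are letter matches, not measured binding.

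The fall was seen in both subunits and in both classes of origin. In the large subunit 27 of 49 members were lower, with a median of -0.21, and in the small subunit 13 of 26, with a median of -0.23. Members with a bacterial counterpart were lower in 26 of 45 (median -0.26) and members particular to mitochondria in 14 of 30 (median -0.16). In the large subunit these were 19 of 29 (median -0.29) and 8 of 20 (median -0.11). In the small subunit they were 7 of 16 (median -0.20) and 6 of 10 (median -0.25). The shares called lower in these subunits and classes ran from 40.0% to 65.5%, against 25.3% of all genes tested. The smallest class held only 10 genes, so its share is uncertain. No member of any of these classes passed the threshold upward, against 24.8% of all genes tested, and no class was tested against another. The classes were assigned by hand after the standard names of the proteins in the mammalian mitoribosome. By these names Mrps18c was counted as the counterpart of bacterial S18, and its relatives Mrps18a and Mrps18b were counted as particular to mitochondria.

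Some members have products with additional roles or a name that goes against their place. Mrpl58, a peptidyl-tRNA hydrolase built into the large subunit, fell by 0.21 ± 0.08 from 8.94, 9.02 and 9.17 to 8.88, 8.76 and 8.84 (adjusted p = 0.0481, and up to 0.143 in the alternatives). Mrps36 is counted apart because its product is a part of the 2-oxoglutarate dehydrogenase complex. It differed by -0.03 ± 0.07 (95% interval -0.19 to 0.14), at 8.81, 8.77 and 8.92 in controls and 8.73, 8.80 and 8.89 with LY2090314. Its groups overlapped. Mrps30, named for the small subunit but located in the large one, was at 10.01, 10.06 and 10.21 against 9.85, 9.81 and 9.98, a fall of 0.21 ± 0.07 (adjusted p = 0.0371, and up to 0.119 in the alternatives).

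Of the 36 members that were not called, some had small estimated differences, though with intervals that could be wide, and others lay near the threshold. Mrpl37, a large-subunit protein particular to mitochondria and one of the 3 most highly expressed members, was at 10.35, 10.36 and 10.60 in controls and 10.43, 10.34 and 10.54 in treated samples, a difference of -0.01 with a 95% interval from -0.20 to 0.19. Mrps23, of the small subunit, was at 9.73, 9.92 and 9.93 against 9.71, 9.62 and 10.14 (-0.04, interval -0.34 to 0.27), with LY 3 above all controls and LY 1 and LY 2 below them. These 2 and Mrps36 had the smallest differences. The 6 positive members were Mrpl48, Mrpl57, Mrpl32, Mrpl9, Mrpl53 and Mrpl45, with differences from 0.19 down to 0.05, and all belong to the large subunit. Mrpl57 was at 7.10, 7.09 and 7.25 in controls and 7.26, 7.36 and 7.33 with LY2090314, apart from each other but by little (0.17 ± 0.08, adjusted p = 0.125). Mrpl48 was at 9.21, 9.30 and 9.34 against 9.29, 9.49 and 9.63 (0.19 ± 0.09, adjusted p = 0.117), with overlapping groups, and without LY 1 it passed the threshold upward (adjusted p = 0.0259). A further 6 members, Mrps25, Mrpl1, Mrpl27, Mrpl22, Mrpl34 and Mrps11, were lower in all treated samples but did not pass the adjusted threshold.

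Levels of the members ranged from 6.02 to 10.78 in mean rlog, with a median of 9.26, and 48 of the 76 were at 9 or above. The highest means were those of Mrpl18 (10.78), Mrpl12 (10.60) and Mrpl37 (10.44) and the lowest those of Mrpl23 (6.02), Mrps16 (6.85) and Mrps6 (6.97). Corrected for exon length (mean rlog minus log2 of the kilobases of exon), Mrpl18 (10.30), Mrpl12 (9.98) and Mrps21 (9.78) were the highest and Mrpl23 (3.73), Mrps16 (5.32) and Mrpl32 (5.36) the lowest. Mrpl18, which sits in the central protuberance, was at 10.84, 10.86 and 10.91 in controls and at 10.63, 10.64 and 10.82 with LY2090314. It fell by 0.17 ± 0.06 (adjusted p = 0.0489, and up to 0.152 in the alternatives), with LY 3 close to the lowest control. Mrps16, of the small subunit, was at 6.94, 6.90 and 7.17 against 6.48, 6.69 and 6.91, and its difference of -0.31 ± 0.13 did not pass (adjusted p = 0.0863). Its groups overlapped by a single treated sample. Across the 76 genes, which are not independent replicates, mean level and difference were nearly unrelated (Pearson r = 0.11, Spearman rho = 0.14), as were exon length and difference (r = -0.04, rho = -0.06).

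The samples of a group did not behave alike for these genes. Control 3 was the highest control in 69 of the 76 members (90.8%, against 42.3% of all genes tested), and LY 3 was the highest treated sample in 60 (78.9%, against 43.0%). The mean over members was still apart between the groups, at 9.17 to 9.33 in the controls and 8.94 to 9.08 with LY2090314. Control 3 and LY 3 were also the highest of their groups in 74 and 77 of the 78 cytosolic ribosomal protein genes, and in 69 and 67 of the 76 nuclear respiratory chain genes. When both samples were left out, an alternative chosen after seeing the data, 42 members were lower and 0 higher, with a median of -0.21. These were 55.3% of the members, against 27.7% of all genes tested in that fit, and 35 of the 40 were among them. The median fall was about as large without these samples. Between the samples of a group the SD of the differences over all genes was 0.19 to 0.25, and between groups it was 0.58 to 0.62. LY 1 and LY 2, whose names share a number, differed by 0.19, as did control 1 and control 2.

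**Figure D3:**
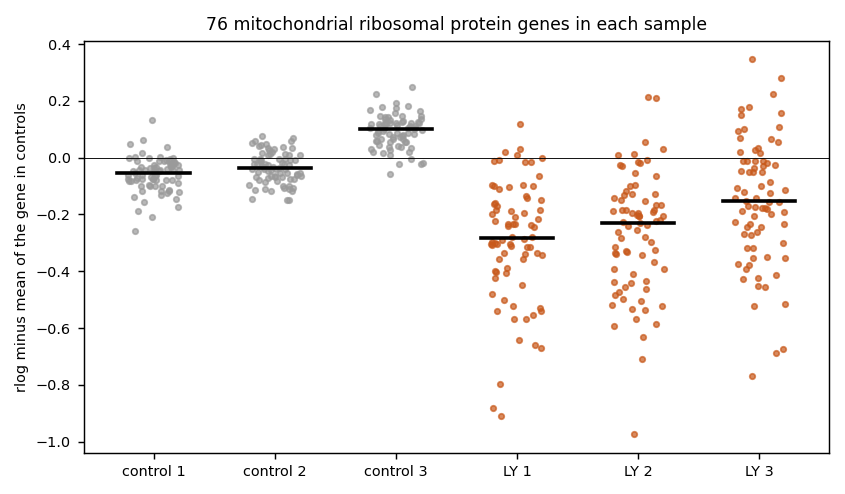
Rlog value of each of the 76 members in each sample minus the mean of that gene over the 3 controls (log2 scale). Each point is a gene and the black bar is the median of the sample. Control 3 lies above the other controls and LY 3 above the other treated samples, and the medians of all 3 treated samples lie below 0.

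Of the members, 22 have a neighbor on the opposite strand whose start lies within 1000 bases of their own, with at most 200 bases of overlap, so that both are transcribed away from a shared region. Of these neighbors 3 fell, 4 rose and 15 were not called, with a median difference of 0.02. The 3 are 13.6% of the neighbors, while 25.3% of all genes tested fell and 24.8% rose. Falls were those of Ptcd2 beside Mrps27 (-0.22 ± 0.06, adjusted p = 0.0226), Ndufs6, a subunit of respiratory complex I, beside Mrpl36 (-0.43 ± 0.10, adjusted p = 0.00896) and Ncapd2, a condensin subunit, beside Mrpl51 (-0.24 ± 0.05, adjusted p = 0.00622). Rises were those of Ighmbp2 beside Mrpl21 (0.41), Ppp1r10 beside Mrps18b (0.31), Gga3 beside Mrps7 (0.45) and Wdfy1 beside Mrpl44 (0.94). Beside the 9 members called lower, 2 neighbors fell, 2 rose and 5 were not called. As a description over the 22 pairs, the differences of member and neighbor had a Pearson r of 0.03 and a Spearman rho of -0.08. Mrpl21 and Ighmbp2, whose ends overlap at the starts, moved by -0.41 and 0.41.

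**Figure D4:**
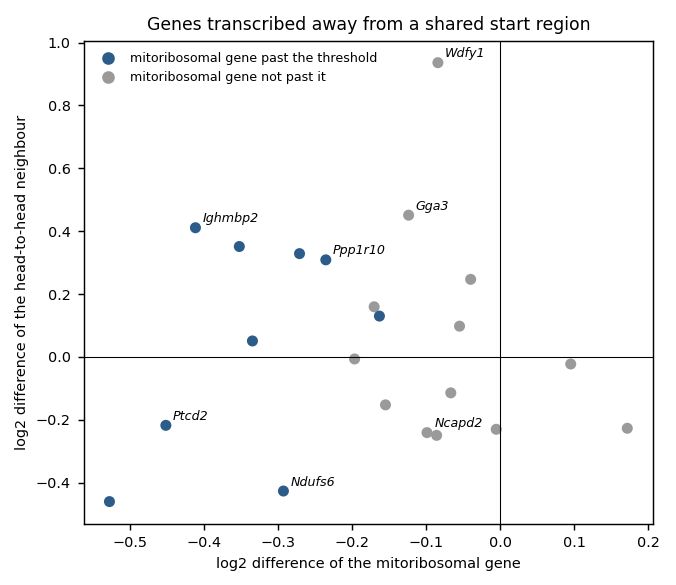
Log2 difference (rlog, LY2090314 minus control) of each of 22 members, horizontal axis, against that of the gene transcribed away from the same start region, vertical axis. Blue points are members that passed the threshold. Neighbors that passed it are named, 3 below 0 and 4 above.

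Reads of some members may be shared with other genes. In 18 of the 76 at least 10% of the 31-base stretches of their annotated exons also occurred in another gene, with 84.4% in Mrpl53 (shared with Gm42688, which overlaps it) and 35.6% in Mrps34 (shared with Nme3) as the highest shares. Exons of 7 members overlap those of another gene on the same strand and exons of 28 on the other strand. The library is described as stranded. For these genes the level, and with it the difference, is uncertain to that extent.

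The 5 mitoribosomal proteins that carry other names were all lower, with a median of -0.38. Dap3, the GTP-binding protein of the small subunit, was at 10.12, 10.25 and 10.32 in controls and 9.87, 9.79 and 10.00 with LY2090314 (-0.34 ± 0.08, adjusted p = 0.00630). Ptcd3, a small-subunit protein with pentatricopeptide repeats, differed by -0.38 ± 0.06, Aurkaip1 by -0.29 ± 0.07 and Chchd1 by -0.41 ± 0.09. Gadd45gip1, which belongs to the large subunit, differed by -0.41 ± 0.07 (adjusted p = 0.00146). Their groups did not overlap.

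Genes for assembly of the mitoribosome were called lower at about the share of all genes tested. Of 26, 7 fell (26.9%, against 25.3%) and 2 rose (7.69%, against 24.8%), with a median of -0.08. Malsu1, which keeps the large subunit from joining too early, fell the most, by 0.68 ± 0.13 (adjusted p = 0.00326). Its values were 7.60, 7.55 and 7.72 in controls and 7.12, 7.04 and 6.66 in treated samples, which did not overlap. Rcc1l, Noa1, Mrm3, Rbfa, Tfb1m and Eral1 fell by 0.46 to 0.25. Nsun4, a methyltransferase of the small-subunit RNA, rose the most, by 0.32 ± 0.07 (adjusted p = 0.00518), from 8.21, 8.26 and 8.14 to 8.52, 8.49 and 8.57, and Mrm2, a methyltransferase of the large-subunit RNA, rose by 0.30 ± 0.10 (adjusted p = 0.0332). Mrm3, which also methylates the large-subunit RNA, was among those that fell.

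The list of translation factors also held genes with other roles in mitochondrial translation, such as Lrpprc. Of its 15 genes 6 fell and 0 passed upward in limma (2 were higher at an unadjusted p under 0.05), with a median of -0.16. The share lower was 40.0%, against 25.3% of all genes tested. Lrpprc, which stabilizes mitochondrial messages, fell the most, by 0.54 ± 0.06 (adjusted p = 0.000139), from 11.89, 11.75 and 11.82 to 11.21, 11.30 and 11.33. The elongation factors Tufm, Gfm1 and Tsfm fell by 0.37, 0.30 and 0.25, and Slirp and Guf1 were the remaining falls. The groups of Slirp overlapped (adjusted p = 0.0459, and up to 0.141 in the alternatives). The largest positive difference, in the initiation factor Mtif3, was 0.23 ± 0.09 and did not pass (adjusted p = 0.0764). Of 17 mitochondrial aminoacyl-tRNA synthetases, which charge the tRNAs used by the mitoribosome, 8 (47.1%) fell and 0 passed upward, with a median of -0.28. At an unadjusted p under 0.05, 1 was higher. The largest positive difference was that of Aars2, 0.22 ± 0.09 (adjusted p = 0.0731).

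The genes that copy and transcribe mitochondrial DNA had no common direction. Of 10, 3 fell and 3 rose, and the median was 0.01. Of all genes tested 25.3% fell and 24.8% rose, so with only 10 genes both counts were near these shares. Top1mt, the mitochondrial topoisomerase, rose by 1.60 ± 0.09 (adjusted p = 4.19e-06), from 4.60, 4.75 and 4.64 to 6.19, 6.30 and 6.31. Tefm, an elongation factor of mitochondrial transcription, rose by 0.59 and Polrmt, the mitochondrial RNA polymerase, by 0.45. Mgme1, Tfam and Ssbp1 fell by 0.32, 0.26 and 0.24.

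RNAs of the mitochondrial genome were lower in all 15 genes by their means, of which 6 passed the threshold and 0 passed upward (8 were lower and 0 higher at an unadjusted p under 0.05). The share called lower was 40.0%, against 25.3% of all genes tested. The median was -0.40. The ribosomal RNAs around which the members assemble were both called, mt-Rnr1 at -0.51 ± 0.18 (adjusted p = 0.0428) and mt-Rnr2 at -0.58 ± 0.18 (adjusted p = 0.0293). The groups of mt-Rnr1 overlapped (exact permutation p = 0.20). In the alternatives the adjusted p rose to 0.133 for mt-Rnr1 and to 0.101 for mt-Rnr2. The library selected polyadenylated RNA, which limits how these 2 are captured. All 3 treated samples lay below the 3 controls in 5 of the 15 genes, while this held for 29.5% of all genes tested. Of the messages, mt-Nd3 (-1.06), mt-Nd6 (-0.68), mt-Nd1 (-0.62) and mt-Nd2 (-0.60) passed, and mt-Nd4, mt-Nd4l, mt-Nd5, mt-Co1, mt-Co2, mt-Co3, mt-Cytb, mt-Atp6 and mt-Atp8, with differences from -0.44 to -0.20, did not. LY 3 was the highest treated sample in all 15 and control 3 the highest control in 13.

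Nuclear subunits of the respiratory chain are assembled with the products of the mitoribosome. Their list was drawn up by gene symbol alone, so an entry need not be a subunit. It resembled the members in its counts, with 43 of 76 lower (56.6%, against 25.3% of all genes tested). There was 1 higher (1.32%, against 24.8%), and the median was -0.26. Atp5g3, of the ATP synthase ring, fell the most, by 0.58 ± 0.07, and Cox7a2l rose by 0.48 ± 0.10. Of the 78 cytosolic ribosomal proteins, 0 were lower (0 also at an unadjusted p under 0.05), 14 were higher and 64 were not called, with a median of 0.20. The share called higher was 17.9%, below the 24.8% of all genes tested. Rps27 rose the most, by 1.11 ± 0.13 (adjusted p = 0.000276), and the lowest value was -0.20. No list was tested against another.

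**Figure D5:**
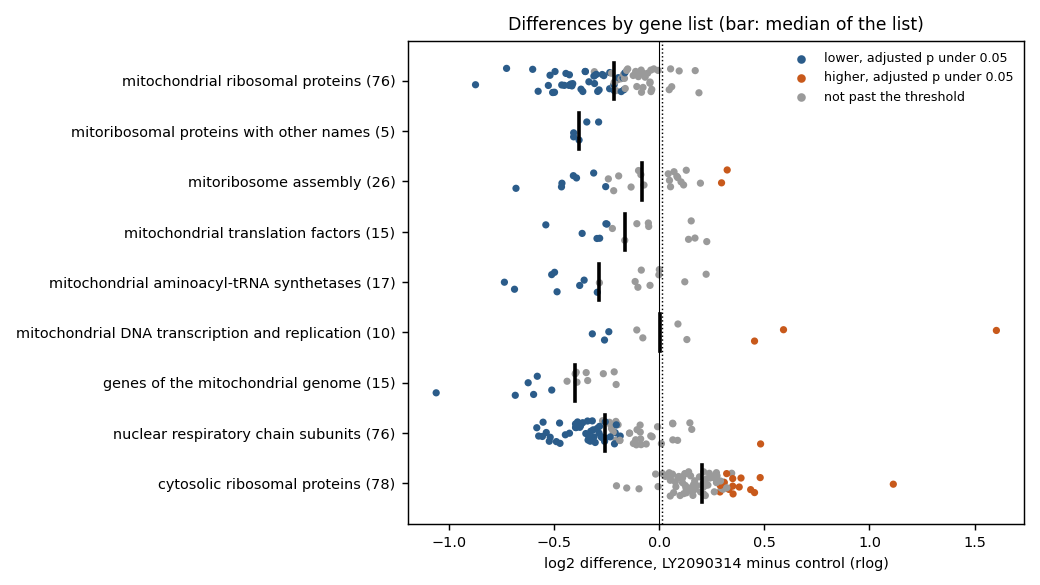
Log2 difference (rlog, LY2090314 minus control) of each gene, by list, with the number of genes tested in brackets. Blue points fell and orange points rose at an adjusted p under 0.05, black bars are medians and the dotted line is the median of all genes tested, 0.01. Members, other mitoribosomal proteins and respiratory chain genes lie mostly left of 0 and cytosolic ribosomal proteins mostly right.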

How the data were processed

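RNA from the 12 samples was, per the labels, converted to stranded libraries of polyadenylated RNA. The authors quantified reads with Salmon against mouse GRCm38 annotation and used DESeq2 (version 1.30.1 in the submitters' processing notes). The deposited table held rlog values, which are log2 values that the authors made from counts with DESeq2 by dividing by size factors and shrinking genes with few reads. Differences of low genes are therefore understated, and without counts no count test, counting interval or depth could be given. How the transformation was run is not given in the sources used here.

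Columns were matched to groups by name alone. Of 12 columns, 6 were used, 3 named for ERT2 controls and 3 for ERT2 with LY2090314, and are called control 1 to 3 and LY 1 to 3 in table order. The other 6 columns could not be matched to a group and were used in no step. Genes with a mean of at least 3 over the 6 samples (11536) entered 1 linear model per gene in limma (version 3.58.1, under R 4.3.3), moderated by eBayes with its trend option. P-values were adjusted by Benjamini-Hochberg over all of these genes, and 0.05 was the threshold. The fit was tested on simulated data. Single genes were also compared by a two-sided exact permutation test. Percentages lower were computed as 1 minus 2 to the power of the log2 difference. Gene positions, exon lengths and shared 31-base stretches came from GENCODE vM21 (GRCm38), and start regions from RefSeq (GRCm38.p6).

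Named members were the 10 largest falls and the 6 largest rises among called members without overlap (there were 0 such rises), the 3 smallest differences, the 3 highest and 3 lowest means, those within 0.5 of the limit, the Mrps18 relatives, Mrps30, Mrpl12 and Mrpl58. In each other list the largest fall and rise were named, except that 1 gene is not reported here. Mrpl48, Mrpl57, Mrps27, Mrps7, the neighbors and other genes named in small counts were chosen after their values were seen. The members and lists were chosen with earlier results of these data known. Alternatives changed the variance model, the limit on the mean, the scaling, the samples, the size limit and the threshold.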

Additional observations from a re-analysis of the deposited data

How the results depend on the processing

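The median member difference stayed between -0.26 and -0.17 in every alternative of samples, scaling and limit on the mean. The count of lower members ranged from 25 to 46 (32.9% to 60.5%) when each sample was left out in turn, against 40 with all samples. In these fits 20.8% to 26.8% of all genes tested were lower. With LY 1 and LY 2 counted as 1 sample, 26 members were lower (34.2%, against 21.4% of all genes tested). An adjusted p under 0.01 left 22 (28.9%, against 17.6%). A log2 difference of at least 0.5 left 8 (10.5%, close to the 9.37% of all genes tested). One of at least 1 left 0, against 1.86%. The count of higher members, 0 with all samples, ranged from 0 to 1 when each sample was left out, and the 1 was Mrpl48 without LY 1. The cause of these changes was not tested, except that fewer samples or a stricter limit entered by construction. Over all genes, 5778 were called, from 4741 to 6225 when each sample was left out, 2388 with a log2 difference of at least 0.5 and 693 with one of at least 1. Quantile normalization shifted the median of all genes from 0.01 to -0.04 and the share of higher calls from 49.5% to 43.4%. It called 44 members lower, or 57.9%, against 29.0% of all genes tested. Of the single-member results under the alternatives, 859 kept their side of the threshold, 97 lost it, 32 gained it and none that was called turned direction.

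No paired analysis was possible because replicate numbers of the sample titles were not found in the headers of the treated columns. Depth was unknown, so no limit from counting error can be given.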
